A study of Mus musculus with 2 samples.

Results

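Collagen genes were described in open chromatin of the mouse adrenal gland. The genes were all protein-coding genes of GENCODE vM21 whose symbol has the form Col, a number, a and a number, with Col1a1 left out, which gave 43 genes of 21802 protein-coding genes. Adrenal glands were taken from adult males of B6CASTF1/J, a hybrid strain, at an age of 18 to 20 months. DNase-seq, which sequences the ends of fragments that the enzyme DNase I frees from accessible chromatin, was run on 2 libraries, and both belong to the same group, with no treatment and no second genotype. They were biological replicates 1 and 2, each with technical replicate number 1. The labels give them separate biosamples but 1 donor entry, so whether they came from separate animals is not stated, and the spread between them may be partly technical.

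Collagens are triple-helical proteins of the extracellular matrix, each trimer built from chains that separate genes encode. Fibril-forming collagens give tissue its tensile strength, type IV collagens form the sheet of basement membranes, and type VI collagens form beaded filaments around cells. In the adrenal gland, collagen surrounds the organ as a capsule made by fibroblast-like cells, and basement membranes line the dense capillaries between the cords of steroid-producing cortical cells and the chromaffin cells of the medulla. Bulk tissue was assayed, so fewer cells of a type and less accessible chromatin per cell cannot be told apart.

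The deposited peak lists held 98630 peaks in replicate 1 and 118249 peaks in replicate 2, with a median width of 180 bp in both. Each peak has a height, the authors' signal, which in each library was a whole multiple of a fixed step within 0.05 of a step, the step being 0.00531 in replicate 1 and 0.0075 in replicate 2. The median peak was 0.717 high in replicate 1, or 135 steps, and 0.75 high in replicate 2, or 100 steps. Numbers of reads were not used here, so no interval from counting is given. Peaks of both libraries that overlapped by at least 1 bp were joined into 65778 regions present in both libraries. A gene was called open where such a region lay within 1 kb of a protein-coding transcript start, and its promoter height is that of its tallest such region, given for replicate 1 and then replicate 2.

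As a check of the tissue label, 4 of 5 adrenal cortex markers were open, among them Cyp11a1, the enzyme that makes pregnenolone from cholesterol, with heights of 3.09 and 2.16, while Mc2r, the receptor for ACTH, had no promoter peak in either library. Of the chromaffin cell markers, Chgb was open at 3.71 and 3.77 and Chga at 1.98 and 1.61, while Th had no promoter peak in either library and Dbh had one of 0.515 in replicate 1 only. Of 6 fibroblast and capsule markers, 4 were open, led by Pdgfra at 4.13 and 4.04, and Dcn and Lum had a peak in replicate 2 only. Endothelium had 3 of 4 open, pericytes and smooth muscle 2 of 4 and Schwann cells 1 of 3. Of the cell types that the gland should lack, keratinocytes had 0 of 3 open and chondrocytes had 3 of 4, namely Sox9, Acan and Hapln1, with a median height of 0.702. Sox9 alone had 2.22 and 2.56, above the cortex markers Nr5a1, Star and Cyp11b1 in both libraries and below Cyp11a1 in replicate 1. Of all protein-coding genes, 64.5% were open, so counts over such short lists do not tell cell types apart. How far the mixture of cells shaped the collagen values was not tested.

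Of the 43 collagen genes, 28 (65.1%) were open in both libraries, beside 64.5% of all protein-coding genes. The share was near that of all genes, but the heights were lower. Among genes over 50 kb, 22 of 29 collagen genes (75.9%) were open, beside 84.2% of 4975 genes of all kinds. The open collagen promoters had a median height of 0.838, with quartiles of 0.588 and 2.26, beside 3.90 with quartiles of 1.94 and 5.84 for the 14066 open genes of all kinds. Only 2 of the 28, Col27a1 and Col6a2, stood above the median of all open genes, a level that 50% of all open genes exceed. The order held in each library, with collagen medians of 0.834 and 0.964 in replicates 1 and 2 beside 3.92 and 3.83 for all open genes. The shares over genes of any length moved apart when only stronger peaks were kept. With the shorter of the authors' peak lists, 46.5% of collagen genes and 59.9% of all genes were open, and with peaks above the median height 30.2% and 58.2%. They also moved apart where at least 50% of each peak had to overlap, at 48.8% and 60.6%. In each library alone the collagen share was the higher.

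**Figure D1:**
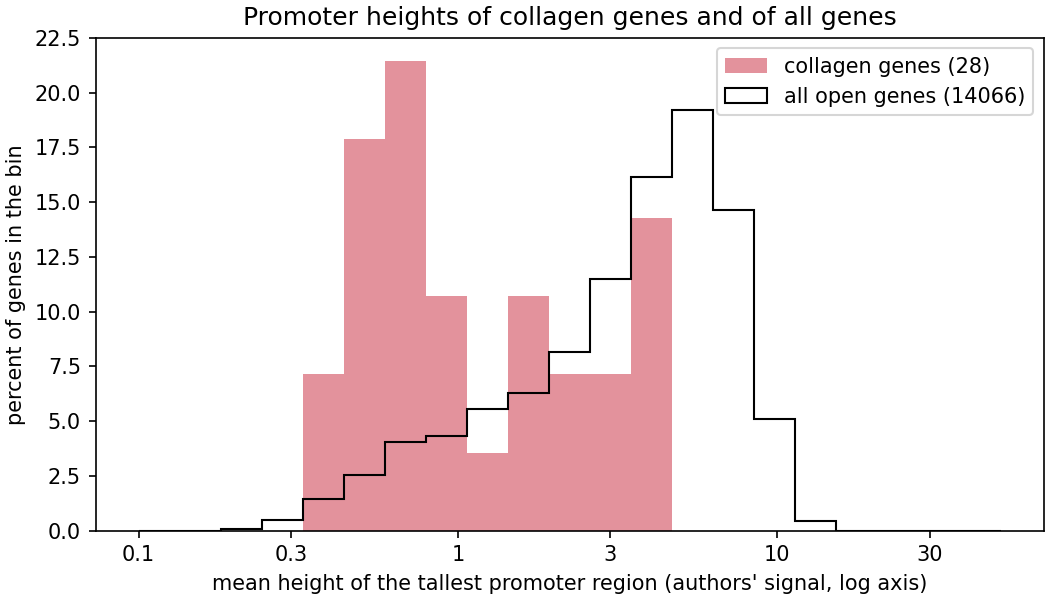
Distribution of promoter heights, as the percent of genes in each bin of mean height over the 2 libraries (log axis), for the 28 open collagen genes (filled) and all 14066 open genes (line). Most collagen genes lie below 1, under the main body of all genes, whose median was 3.90.

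The log2 ratio of replicate 1 to replicate 2 had a median of 0.09 and an SD of 0.53 over the 28 open collagen genes, beside 0.05 and 0.34 over all open genes. Replicate 1 was the higher library at 15 of 28 collagen promoters and at 7886 of 14066 promoters in all. The genes farthest apart were Col12a1, at 1.00 in replicate 1 and 2.17 in replicate 2, Col18a1, at 1.52 and 3.19, and Col13a1, at 0.908 and 0.450. Neighbours in the order of mean heights differed by less than such gaps, so their order is not read as a difference.

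**Figure D2:**
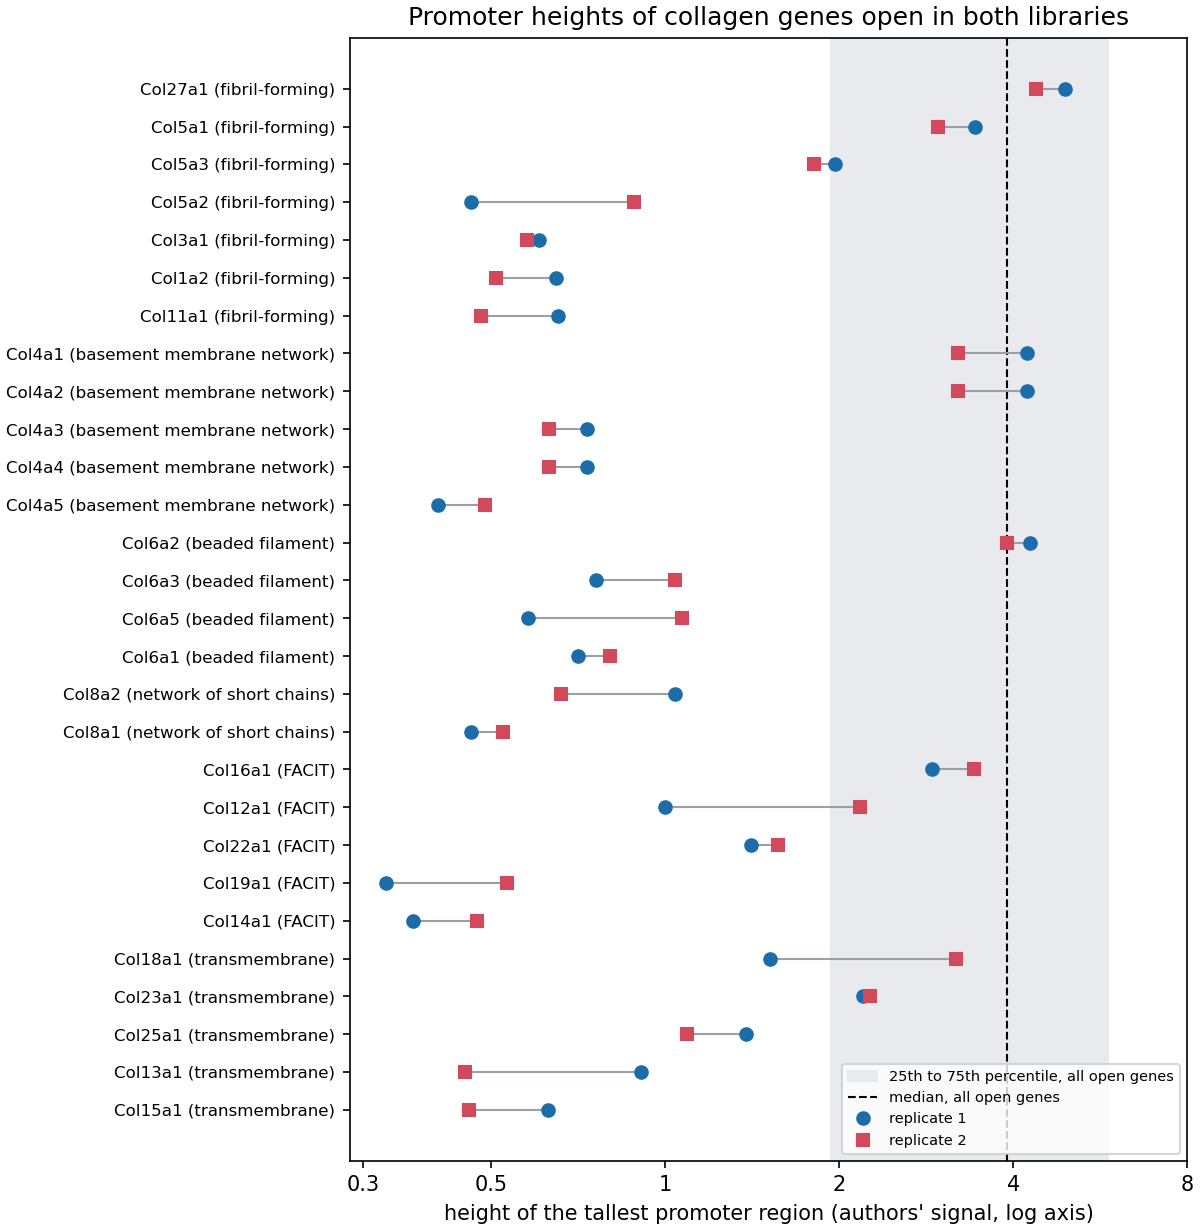
Height of the tallest promoter region of each open collagen gene (log axis) in replicate 1 (circles) and replicate 2 (squares), grouped by structural class. The dashed line is the median of all open genes (3.90) and the grey band their middle quartiles. Col27a1 lies right of the line in both libraries.

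Sequences under the promoter and distal regions that stood highest, and under the low promoters set beside them, are printed here and referred to below. Promoter windows run from 250 bases before to 50 after a RefSeq start of GRCm38.p6, the build of mm10, and are read along the gene's strand. Capitals mark bases under footprints, the short stretches that the authors listed as protected from cleavage, that overlapped between both libraries. Overlapping footprints were joined to their full extent, so some of these bases may lie under a footprint of 1 library only.
Col27a1, chr4:63215162-63215461, plus strand: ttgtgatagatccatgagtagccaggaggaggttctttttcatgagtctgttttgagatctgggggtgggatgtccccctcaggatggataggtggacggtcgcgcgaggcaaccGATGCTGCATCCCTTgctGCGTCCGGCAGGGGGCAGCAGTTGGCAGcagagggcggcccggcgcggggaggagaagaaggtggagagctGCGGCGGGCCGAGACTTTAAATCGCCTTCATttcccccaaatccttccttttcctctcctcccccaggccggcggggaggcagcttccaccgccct
Col6a2, chr10:76623355-76623654, minus strand: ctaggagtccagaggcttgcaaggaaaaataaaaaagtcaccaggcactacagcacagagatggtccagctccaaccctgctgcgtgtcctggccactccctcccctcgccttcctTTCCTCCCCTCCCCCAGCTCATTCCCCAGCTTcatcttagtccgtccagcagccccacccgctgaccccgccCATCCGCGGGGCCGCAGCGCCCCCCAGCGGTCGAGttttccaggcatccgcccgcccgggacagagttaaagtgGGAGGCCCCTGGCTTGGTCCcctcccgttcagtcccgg
Col4a2, chr8:11312555-11312854, plus strand: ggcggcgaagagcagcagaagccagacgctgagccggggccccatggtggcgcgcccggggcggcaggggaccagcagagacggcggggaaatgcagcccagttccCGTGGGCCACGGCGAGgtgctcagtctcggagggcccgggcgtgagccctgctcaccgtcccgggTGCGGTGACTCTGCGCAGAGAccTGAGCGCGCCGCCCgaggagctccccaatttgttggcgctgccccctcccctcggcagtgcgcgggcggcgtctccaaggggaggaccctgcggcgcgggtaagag
Col5a1, chr2:27886175-27886474, plus strand: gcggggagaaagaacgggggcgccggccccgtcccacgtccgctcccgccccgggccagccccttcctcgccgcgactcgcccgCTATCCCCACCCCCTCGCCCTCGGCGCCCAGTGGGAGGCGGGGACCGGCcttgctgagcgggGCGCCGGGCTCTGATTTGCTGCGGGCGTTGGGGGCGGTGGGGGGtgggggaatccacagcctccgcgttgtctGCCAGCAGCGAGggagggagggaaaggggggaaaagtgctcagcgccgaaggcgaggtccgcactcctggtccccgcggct
Col4a4, chr1:82586800-82587099, minus strand: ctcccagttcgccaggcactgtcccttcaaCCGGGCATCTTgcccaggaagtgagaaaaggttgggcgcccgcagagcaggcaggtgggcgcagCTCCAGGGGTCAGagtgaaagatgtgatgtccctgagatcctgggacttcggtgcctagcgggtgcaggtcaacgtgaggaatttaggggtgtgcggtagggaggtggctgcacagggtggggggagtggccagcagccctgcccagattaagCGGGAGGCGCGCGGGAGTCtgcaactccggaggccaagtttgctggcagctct
Col4a5, chrX:141475169-141475468, plus strand: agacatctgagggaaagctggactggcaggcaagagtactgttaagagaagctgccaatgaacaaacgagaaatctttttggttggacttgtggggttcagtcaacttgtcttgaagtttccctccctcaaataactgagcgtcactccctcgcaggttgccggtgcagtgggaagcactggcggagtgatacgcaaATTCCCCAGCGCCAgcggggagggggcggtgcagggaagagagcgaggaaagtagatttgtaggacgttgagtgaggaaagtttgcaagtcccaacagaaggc
Col1a2, chr6:4505368-4505667, plus strand: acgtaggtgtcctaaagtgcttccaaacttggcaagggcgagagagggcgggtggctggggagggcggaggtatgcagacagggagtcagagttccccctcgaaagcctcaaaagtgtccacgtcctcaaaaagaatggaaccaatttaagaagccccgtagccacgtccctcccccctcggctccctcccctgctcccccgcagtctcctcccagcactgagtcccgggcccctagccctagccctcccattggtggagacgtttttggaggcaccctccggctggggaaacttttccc
The first 4 have promoter heights of 3.21 to 4.65 and 51 to 105 bases under shared footprints. The last 3 have heights of 0.446 to 0.681 and 43, 14 and 0 such bases.

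Among the 10 fibril-forming collagen genes, 7 were open, with heights between 0.567 and 4.65 and a median of 0.673. Col27a1, a fibrillar chain of developing cartilage, was the highest collagen promoter, at 4.91 and 4.39, which 60.1% of open genes fell below. Its region, at chr4:63215241-63215420, lies in an intron of another transcript of the gene, its centre 104 bp before the start of the transcript used. When only the 5′ end of each gene was taken as its start, Col27a1 was not open. Col5a1, whose chain with that of Col5a2 starts and limits the width of type I fibrils, followed at 3.44 and 2.97, and Col5a3 had 1.97 and 1.81. Col5a2 was far lower than its partner, at 0.462 and 0.885.

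The chains of the bulk fibrils were at the low end. Col1a2, the second chain of type I collagen, had 0.648 and 0.510, and Col3a1, the type III chain of pliable tissues and vessel walls, had 0.605 and 0.577. Of all open genes, 4.39% were lower than Col1a2 and 4.64% lower than Col3a1. At Col1a2, replicate 1 had a peak of 300 bp at chr6:4505421-4505720. Replicate 2 had a peak of 140 bp and 0.495 inside it, at chr6:4505521-4505660, and its taller peak of 0.510 at chr6:4505641-4505897. Where at least 50% of each peak had to overlap, Col1a2 was no longer open. Col11a1, a minor fibril chain of cartilage, had 0.653 and 0.480. Of the 3 fibril-forming genes not open in both libraries, Col2a1, the main cartilage chain, had a peak of 0.495 in replicate 2 only. Col24a1 had a peak of 0.195 in replicate 2 only, and Col11a2 had 4 peaks between 0.307 and 0.870 in replicate 2 and none in replicate 1.

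The 6 type IV genes lie in 3 head-to-head pairs, in which the 2 genes are read away from each other from a common region. Col4a1 and Col4a2 encode the chains found in nearly every basement membrane, Col4a3 and Col4a4 those of the kidney glomerulus and a few other sites, and Col4a5 and Col4a6 chains that join them in particular basement membranes. The 5′ ends of the Col4a1 and Col4a2 genes lie 21 bp apart, with the genes overlapping there, and both were open at the same region, chr8:11312641-11312960, with heights of 4.22 and 3.21. Another 4 regions present in both libraries lay within 1 kb of both starts, between 0.738 and 1.84 in single libraries, so the tall region stood within a stretch of lower ones. The FDR calls, stretches where the authors list a false discovery rate under 0.05, covered 79% and 91.3% of the window of 1 kb on each side of the Col4a2 start.

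The 5′ ends of the Col4a3 and Col4a4 genes lie 72 bp apart, and the genes shared 1 region, chr1:82586701-82587080, with heights of 0.733 and 0.630. It had 3 footprints in both libraries, as its sequence above shows, but was low beside the Col4a1 and Col4a2 region. The 5′ ends of Col4a5 and Col4a6 lie 1309 bp apart, and the genes shared no region. Col4a5 had 0.404 and 0.487 at chrX:141475081-141475480, which covers its start, and Col4a6 had a peak of 0.149 in replicate 1 only. Both genes lie on the X chromosome, of which male cells hold a single copy.

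**Figure D3:**
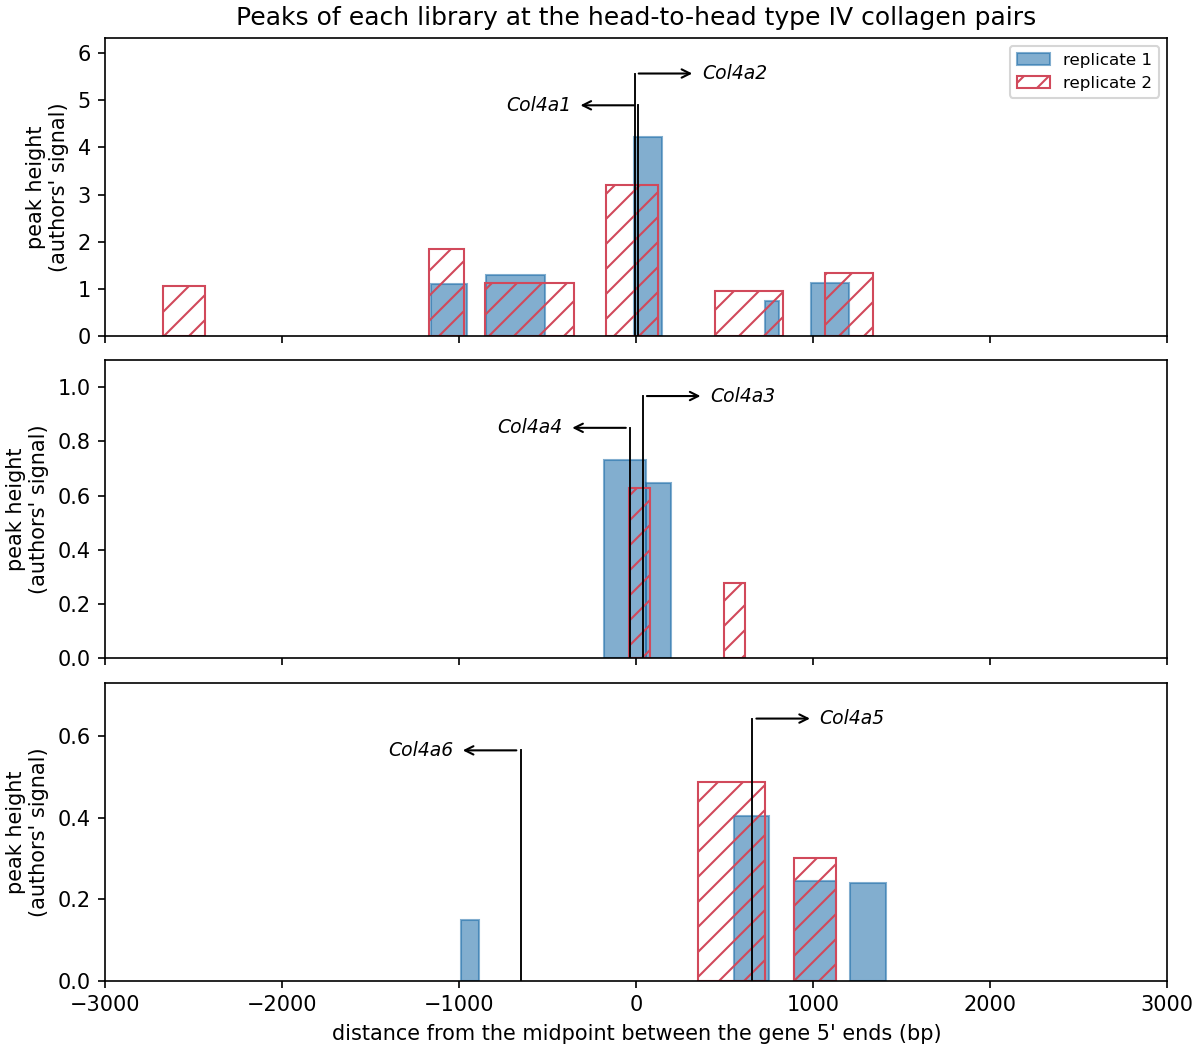
Peaks of replicate 1 (filled) and replicate 2 (hatched) around the 3 head-to-head type IV pairs, drawn to scale by distance from the midpoint between the gene 5′ ends (bp), with peak height in the authors' signal. Arrows mark the 5′ ends and directions; the vertical scales differ, with the tallest peaks at 4.22, 0.733 and 0.487.

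Among the 6 type VI genes and Col7a1, 4 were open. Col6a2, a chain of the common type VI filament, had the second highest collagen promoter, at 4.28 and 3.91. Its partners in that filament were low, with Col6a3 at 0.759 and 1.04 and Col6a1 at 0.706 and 0.802. The Col6a1 region was centred 850 bp inside the gene, in an intron, and with a window of 500 bp Col6a1 was not open. Col6a5, a chain that can replace that of Col6a3, had 0.579 and 1.07. Col6a6 had a peak in each library, 0.265 in replicate 1 and 0.645 in replicate 2, at places that did not overlap. Col6a4, and Col7a1, the anchoring fibril of skin, had no promoter peak in either library.

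Of the 3 short-chain genes, Col8a2, a network chain of corneal endothelium, had 1.04 and 0.660. Col8a1, its partner, had 0.462 and 0.525 at a region 654 bp before its start. Another Col8a1 region in both libraries covers the start itself, at 0.457 and 0.405. Col10a1, the chain of hypertrophic cartilage, had no promoter peak in either library.

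FACIT collagens sit on the surface of fibrils, and 5 of the 9 genes were open, from 0.419 to 3.16 with a median of 1.49. Col16a1 was the highest, at 2.89 and 3.42, followed by Col12a1 and by Col22a1, at 1.41 and 1.57, a chain of tissue junctions. Col14a1, which coats type I fibrils, had the lowest mean height of the open collagen promoters, with 0.366 and 0.472. Col19a1 was lower in replicate 1, and Col13a1 and Col15a1 in replicate 2. Col19a1 had 0.329 and 0.532 at a region 860 bp inside the gene. The 3 type IX genes of cartilage, Col9a1, Col9a2 and Col9a3, and Col20a1 had no promoter peak in either library.

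The 4 transmembrane genes and the 2 multiplexin genes, Col15a1 and Col18a1, whose chains lie in or next to basement membranes and release the fragments restin and endostatin, had 5 open members. Col18a1 had 4 regions near its starts, and the tallest, at 1.52 and 3.19, lay 114 bp before an internal start rather than at the 5′ end of the gene, where the heights were 1.47 and 1.18. Col23a1 had 2.20 and 2.26 and Col25a1 had 1.38 and 1.09. The Col25a1 region lies at a start inside the annotated gene, and with only the 5′ end as start Col25a1 was not open. Col15a1 was low at its promoter, at 0.627 and 0.457. Col17a1, the hemidesmosome collagen of skin, had no promoter peak in either library. Of the 2 genes in no class, Col26a1 had 2 peaks in replicate 1 only, of 0.356 and 0.520, and Col28a1 had none.

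The 15 genes that were not open thus comprised 9 with no promoter peak in either library, 5 with peaks in 1 library only, and Col6a6. The FDR calls come from the same libraries, and the longer peak list has the same limit, a false discovery rate of 0.05. They are thus not separate from the peaks. A position with a false discovery rate under 0.05 was listed in both libraries within 1 kb of a start for 32 collagen genes of 43, beside 65.5% of all genes. In 8 of the 9 genes with no peak, no such position was listed in either library, and Col9a2 had 18 bp of them in replicate 1 only. The median share of the window listed was 12.9% and 15.7% in replicates 1 and 2 for collagen genes, beside 20.2% and 22.8% for all genes.

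Promoter footprints overlapped between both libraries at 19 collagen genes, or 44.2%, beside 59.8% of all genes. In single libraries the shares were the other way round, with footprints at 30 collagen genes (69.8%, beside 65.5% of all genes) in replicate 2 and at 29 (67.4%, beside 65.2%) in replicate 1. The open collagen genes had a median of 1.5 such footprints and all open genes a median of 4. By class, footprints were present in both libraries at 5 of 6 type IV genes, 5 of 10 fibril-forming genes, 3 of 9 FACIT genes, 3 of 6 transmembrane and multiplexin genes, 2 of 7 type VI and anchoring genes and 1 of 3 short-chain genes. The type IV count includes both Col4a1 and Col4a2, which share the same 4 footprints, and both Col4a3 and Col4a4, which share the same 3. Col23a1 had 6, and Col1a2 had 2 in replicate 1 but none in replicate 2.

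The promoter windows were also compared for CpG content, since promoters rich in CpG tend to be open in most cell types. RefSeq windows were found for 35 of the 43 collagen genes, and those without an entry were Col2a1, Col4a3, Col5a2, Col9a3, Col12a1, Col14a1, Col22a1 and Col26a1. Where a gene had several windows, the one with the highest observed over expected CpG ratio was used, wherever its tallest promoter region lay. For Col18a1 this was 0.538 at the 5′ end of the gene, while the window beside its tallest region had 0.227. Over the 35 genes, the observed over expected CpG ratio had a median of 0.471, beside 0.631 over 16498 genes. Open collagen genes had 0.561, beside 0.781 for open genes of all kinds, while collagen genes that were not open had 0.303, beside 0.184. All genes were split by this ratio into 3 groups of about equal size. The group with the highest ratios held 6 collagen genes, and all 6 were open, beside 97.4% of all genes in it. The middle group held 17, of which 13 were open, beside 83.0%, and the group with the lowest ratios held 12, of which 4 were open, beside 19.3%. The median heights of open collagen promoters were lower than those of all open genes in each group, at 2.22 beside 5 in the highest, 0.826 beside 3.35 in the middle and 0.673 beside 1.45 in the lowest.

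**Figure D4:**
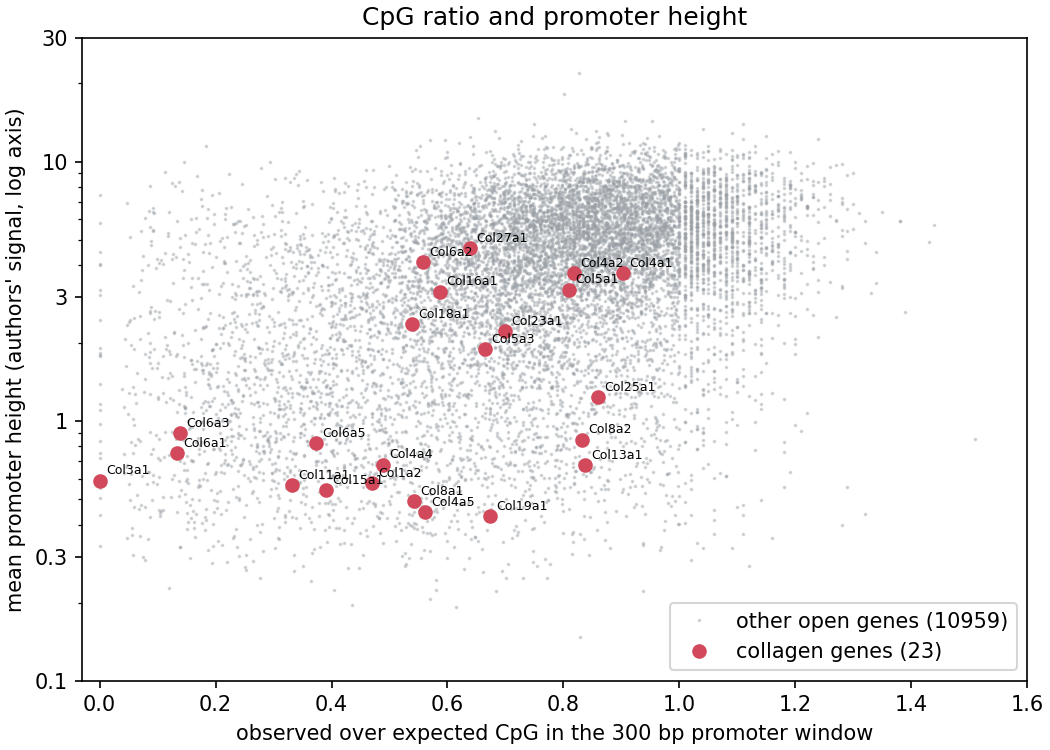
Observed over expected CpG in the 300 bp RefSeq promoter window against mean promoter height (log axis), for 23 open collagen genes (large points) and the other open genes (small points). The window is that with the highest ratio of each gene and need not lie at the region whose height is drawn. Col6a2, with a ratio of 0.557, and Col27a1, with 0.639, are the highest collagen points, and Col13a1 and Col8a2 are low at ratios above 0.8.

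Motif letters were searched on both strands of these windows. The SP/KLF box GGGCGG was in 23 of 38 collagen windows (60.5%), beside 47.7% of 20121 windows of all genes. The NFY box CCAAT was in 34.2% beside 37.8%, TATAAA in 13.2% beside 12.2%, the TEAD letters GGAATG in 13.2% beside 13.4%, the AP-1 letters TGANTCA in 2.63% beside 6.99%, and TGACGTCA, the cAMP response element, in 2.63% beside 2.31%. The letters CAAGGTCA of NR5A1, the factor that drives steroid-producing cell genes, were in 2 collagen windows (5.26%, beside 1.25% of all windows), those of Col7a1 and Col9a1, which had no promoter peak. The NFI palindrome and the CTCF motif matched no collagen window, and the CArG box matched 1, while a TATAAA may lie within a CArG box. The CTCF motif was searched as a fixed pattern of 12 bases, and near matches to it were not counted. In the printed sequences a GGGCGG, or its reverse CCGCCC, lay under a shared footprint in Col4a2, 48 bp before its start, and in Col5a1, 73 bp before its start. In Col6a2 one lay 67 bp before the start, with only 1 of its 6 bases under a shared footprint. In Col1a2 a CCAAT lay 109 bp before its start, under no shared footprint. A match of letters is not evidence of binding.

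Regions away from promoters were counted next. Within 50 kb of a start, and beyond 1 kb of any protein-coding start, the median collagen gene had 4 distal regions and the median gene 2. With the peaks of 1 library alone the medians were closer, at 6 beside 5 in replicate 2 and 4 beside 3 in replicate 1. At least 1 was present for 36 collagen genes, or 83.7%, beside 78.1%. These were 174 distinct regions of 43097, with a median height of 1.10 beside 0.976. Introns held 91 of them, exons 13 and intergenic sequence 70, and 131 had a collagen start as their nearest protein-coding start. Collagen genes are long, with a median of 114 kb beside 17.4 kb. Among genes over 50 kb, the medians were again 4 for the 29 collagen genes and 2 for 4975 genes of all kinds, and the gene bodies held 2.22 and 1.56 regions per 100 kb. In the same long genes the promoter heights remained apart, at 0.863 for open collagen genes beside 3.42.

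Col5a1 had the most distal regions, 13, of which 11 lay in its own introns, with mean heights between 0.455 and 2.09. Col18a1 had 11, Col5a3 and Col12a1 had 10 each, and Col13a1, Col15a1 and Col22a1 had 9 each. Col4a6, Col5a2, Col6a5, Col8a1, Col24a1, Col25a1 and Col28a1 had none within 50 kb of a start. Each still held 1 to 6 such regions farther inside its gene body, the most in Col25a1. Col1a2 had 5, the tallest 40438 bp beyond a start, past the end of the gene, at 1.74 and 2.52, and Col3a1 had 1, at 0.335 and 1.00, which lies in an intron of its neighbour Col5a2. Some regions counted for a collagen gene lie nearer to other genes: of the 8 around Col11a2, which sits in the crowded histocompatibility region, none was nearest to a Col11a2 start.

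Distal regions were often taller than the promoter. Among the 24 open collagen genes with a distal region, 17 (70.8%) had one taller than their promoter region, beside 33.5% of 12498 genes of all kinds. This share is not separate from the lower promoters (median 0.838 beside 3.90) and the more numerous distal regions (4 beside 2), while distal heights were similar (1.10 beside 0.976). Col4a3 and Col4a4 each count among the 17, although they share both regions, at mean heights of 0.681 and 1.36. The tallest distal region was in an intron of Col16a1, at 7.66 and 6.55, although the nearest start is that of Pef1, 14918 bp away. A region 16094 bp before the start of Col5a3, nearest to Rdh8, had 6.34 and 7.31, and one in an intron of Col23a1 had 7 and 6.63. A region 1522 bp before Col13a1 had 5.77 and 6.07, against a Col13a1 promoter of 0.908 and 0.450. In introns of Col18a1 and Col8a2, regions had 5.34 and 4.99, and 4.67 and 4.21. Col15a1 had a pair of intron regions, with 4.03 and 4.13 in one and 4.49 and 3.40 in the other, both above its promoter. At these 8 regions the libraries lay close together, with SDs of 0.0724 to 0.783 around means of 3.94 to 7.11.

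The sequences of 6 of these regions are given on the plus strand of mm10, with capitals as above.
Col16a1 intron, chr4:130087441-130087640: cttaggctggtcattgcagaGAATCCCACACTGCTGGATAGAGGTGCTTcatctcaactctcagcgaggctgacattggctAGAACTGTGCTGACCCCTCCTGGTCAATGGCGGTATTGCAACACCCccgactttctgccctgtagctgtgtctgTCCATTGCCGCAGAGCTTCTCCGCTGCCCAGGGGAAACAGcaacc
Before Col5a3, chr9:20831081-20831240: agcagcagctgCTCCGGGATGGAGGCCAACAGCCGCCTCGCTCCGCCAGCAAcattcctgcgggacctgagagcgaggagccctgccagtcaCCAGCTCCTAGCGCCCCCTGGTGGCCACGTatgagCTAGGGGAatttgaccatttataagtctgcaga
Col23a1 intron, chr11:51539721-51539940: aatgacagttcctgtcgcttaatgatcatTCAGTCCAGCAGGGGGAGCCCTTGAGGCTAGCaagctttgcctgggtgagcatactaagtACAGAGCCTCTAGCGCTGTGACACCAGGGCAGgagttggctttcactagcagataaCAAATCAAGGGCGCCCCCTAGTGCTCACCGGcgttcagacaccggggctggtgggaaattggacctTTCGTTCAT
Before Col13a1, chr10:61980541-61980720: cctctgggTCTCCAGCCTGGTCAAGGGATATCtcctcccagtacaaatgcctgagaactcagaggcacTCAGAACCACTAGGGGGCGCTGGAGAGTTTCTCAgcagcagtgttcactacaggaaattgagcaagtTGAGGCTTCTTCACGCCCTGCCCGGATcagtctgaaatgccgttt
Col18a1 intron, chr10:77130661-77130840: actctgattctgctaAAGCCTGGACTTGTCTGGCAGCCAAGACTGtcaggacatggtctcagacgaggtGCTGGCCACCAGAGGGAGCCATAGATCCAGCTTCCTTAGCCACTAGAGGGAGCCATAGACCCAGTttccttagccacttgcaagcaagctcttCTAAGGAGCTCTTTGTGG
Col8a2 intron, chr4:126309981-126310160: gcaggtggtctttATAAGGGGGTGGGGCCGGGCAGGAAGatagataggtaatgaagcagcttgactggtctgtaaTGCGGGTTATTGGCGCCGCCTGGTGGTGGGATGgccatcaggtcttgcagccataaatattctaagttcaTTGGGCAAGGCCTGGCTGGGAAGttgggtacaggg
Shared footprints covered 79 to 115 bases of each. The CTCF motif, that of the insulator protein, matched under a shared footprint in the regions before Col5a3 and Col13a1. Only exact matches to its pattern were taken, so the other regions are not shown to lack such sites. In Col8a2 the reverse complement of CCAAT matched once under a shared footprint and once with 4 of its 5 bases under one. Over all 174 collagen distal regions, the CTCF motif matched 14.4%, beside 17.7% of 41734 distal regions on chromosomes other than 18. TGANTCA matched 17.2% beside 13.7%, GGAATG 17.8% beside 13.2%, CAAGGTCA 4.60% beside 2.93%, CCAAT 25.9% beside 23.7% and GGGCGG 9.20% beside 13.4%. The regions differ in width, and these shares are descriptions only.

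**Figure D5:**
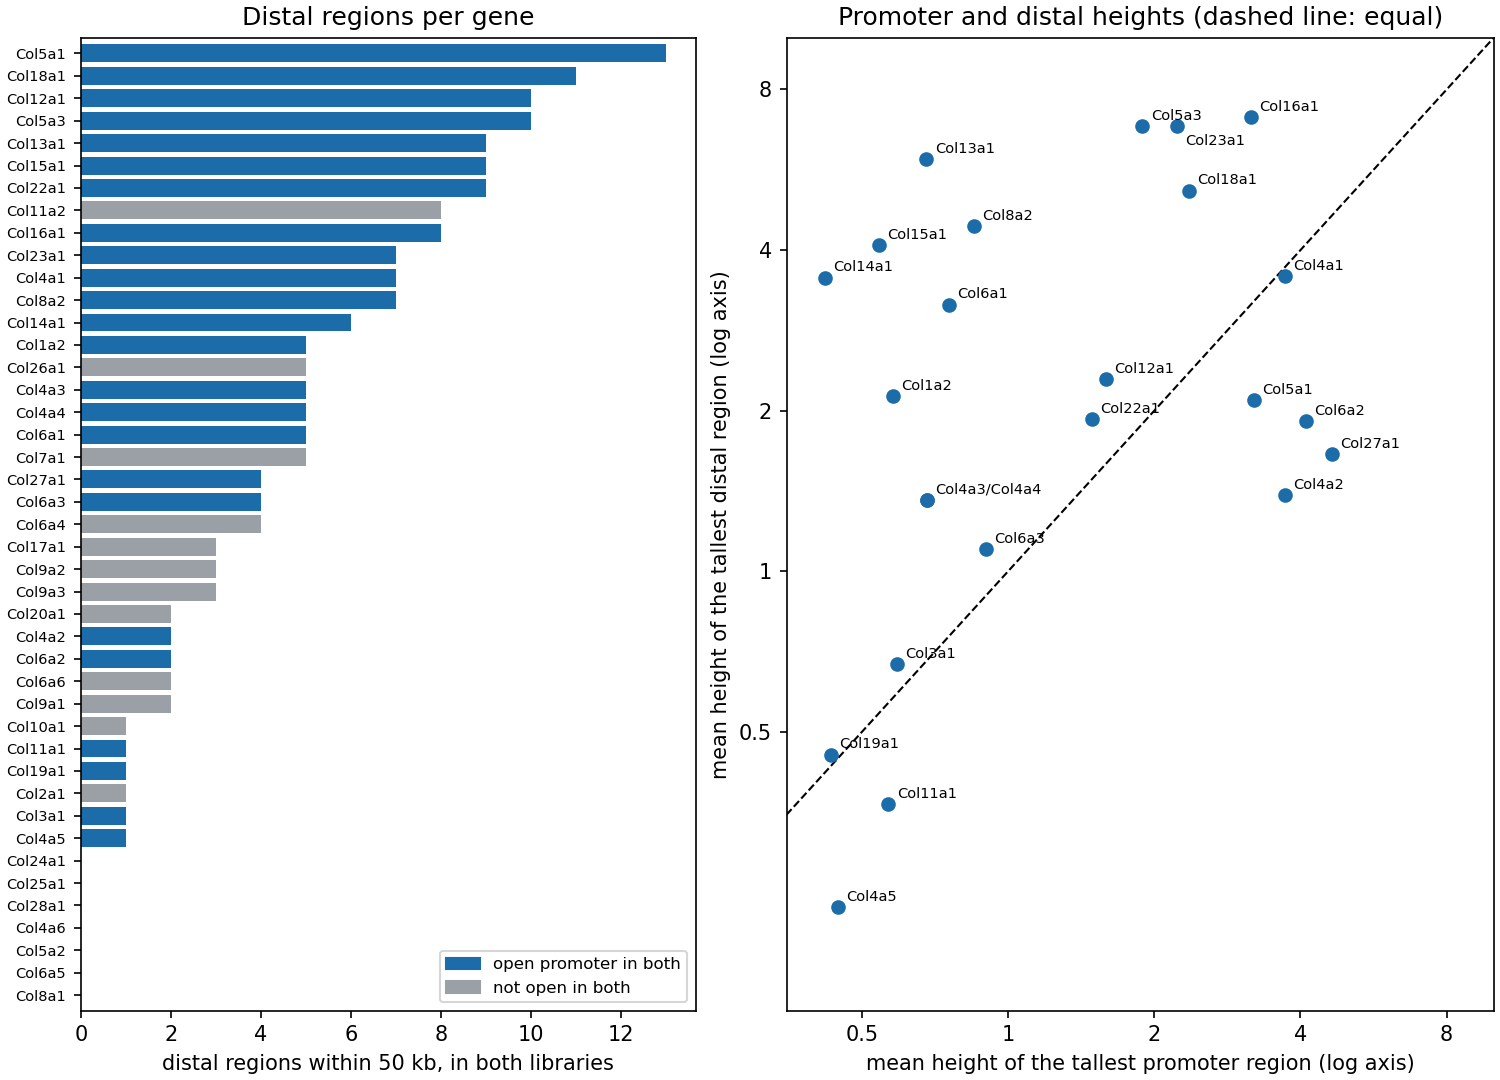
Left, number of distal regions within 50 kb present in both libraries for each of the 43 collagen genes, coloured by whether the promoter was open in both. Right, mean height of the tallest distal region against the tallest promoter region for the 24 open collagen genes with both (log axes), of which 17 lie above the line of equality.

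Genes that make, export, bind and remodel collagen were read in the same way. Of all protein-coding genes, 64.5% were open, with a median height of 3.90. All 18 genes of chain modification and folding were open, with a median height of 3.19. They were led by P4hb and P4ha1, subunits of prolyl 4-hydroxylase, at 8.01 and 9.22 and at 8.96 and 6.04, and by P3h1, a prolyl 3-hydroxylase, at 6.39 and 8.10. All 11 genes of export and propeptide cleavage were open, with a median of 2.68. Sec23a, a coat protein of export vesicles, had 6.87 and 6.55, Mia3, which loads procollagen into them, had 6.28 and 5.52, and Creb3l2, a factor for secretory genes, had 4.70 and 5.23. Many of these genes serve all secretory cells.

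Of the 5 cross-linking oxidase genes, 4 were open, led by Loxl4 at 2.63 and 2.14, Loxl3 at 2.19 and 2.03 and Loxl1 at 1.41 and 1.66, and Loxl2 had no peak. Of the 8 receptor genes, 6 were open. Itgb1, the common beta chain of collagen-binding integrins, had 5.12 and 4.15, Ddr1, a collagen-binding kinase, had 2.80 and 2.19, and Itga2 had 1.87 and 1.65. Itga1 had peaks of 2.17 and 3.19 that did not overlap between the libraries, and Lair1, a receptor of immune cells, had none. Of the 11 turnover genes, 5 were open (45.5%), beside 80% of the cross-linking genes, 75% of the receptor genes and 64.5% of all genes. The open cross-linking, receptor and turnover genes had median heights of 1.82, 1.38 and 1.33, below the 3.90 of all open genes. The inhibitors Timp3, at 5.04 and 3.26, and Timp2, at 4.03 and 3.58, stood above the membrane protease Mmp14, at 1.45 and 1.21. Mmp8, Mmp9, Mmp13 and Ctsk, proteases of neutrophils, osteoclasts and cartilage among others, had no promoter peak in either library, and Mmp2 and Fap had a peak in 1 library each.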

How the data were processed

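DNase-seq was analysed in 2 adrenal gland libraries of 1 group. The deposited files hold, per library and on mm10 per the labels, peaks at 2 lengths of list, footprints, and stretches with a false discovery rate. The authors' peak height is a signal scaled in a way not given in the sources used here, as are the peak caller and aligner. The deposited footprint score was the same in every line, so only positions were used. The deposited q-value (false discovery rate) was listed only under 0.05.

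Starts were those of protein-coding transcripts in GENCODE vM21, with 54 records of repeated symbols dropped. Peaks of the longer list were joined across libraries by an overlap of 1 bp, with Python 3.11.15, pandas 2.3.3 and numpy 2.4.6, and checked on simulated data. Values are means ± SD over 2 libraries. With 1 group, no test between conditions was possible, and collagen genes are described beside all genes. Members and lists were chosen with earlier results of these data known. Genes were named by a fixed rule: every collagen gene by class, values in full for the type IV pairs, the 5 highest and 5 lowest open genes, those open in 1 library, those with most distal regions and the main fibril, type VI and multiplexin chains, and of the other lists the 3 highest genes and those with no peak. Other collagen values are given as context. Promoter windows from RefSeq were compared with the genome for 21 genes and were identical in all 21. Alternatives were the windows, the shorter list, height, overlap, start choice and leaving out a library. The depth of sequencing is unknown. One chromaffin cell marker is not reported here.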

Additional observations from a re-analysis of the deposited data

How the results depend on the processing

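No paired analysis was possible because there is 1 group. The number of open collagen genes stayed between 20 and 33 under other windows, starts, overlaps and the shorter list, and was 31 and 32 in single libraries. When peaks had to overlap by at least 50% of each, the share was 48.8%, beside 60.6% of all genes. It was 72.1% beside 66.6% in replicate 1 and 74.4% beside 67.3% in replicate 2. Windows of 500 bp and 5 kb gave 60.5% beside 63.2% and 76.7% beside 70.7%, and gene 5′ ends 60.5% beside 61%. With peaks above the median height, 13 collagen genes (30.2%) were open, beside 58.2% of all genes. The median height of open collagen genes was 1.49 with a window of 5 kb, 1.54 with the shorter list and 1.48 when peaks had to overlap by at least 50% of each, since low promoters drop out or distal peaks enter, and 0.733 to 0.836 in single libraries. It was 2.36 with peaks above the median height, beside 4.25 for all genes. All-gene medians ranged from 3.67 to 4.25 over these settings, above the collagen value in each. Genes with a promoter footprint numbered 29 to 30 in single libraries against 19 in both, and the share, below that of all genes in both libraries, was above it in each alone. The median number of distal regions, collagen beside all genes, was 1 beside 1 within 20 kb, 7 beside 5 within 100 kb, 2 beside 1 with the shorter list, with peaks above the median height and when a region counted only for its nearest start, and 4 to 6 beside 3 to 5 in single libraries. The median log2 ratio of the libraries was 0.06 after scaling by the median promoter height, 0.14 with a window of 500 bp and 0.12 with the shorter list. Heights are limited by the few steps behind low peaks, such as 28 for the Col4a6 peak and 26 for the Col24a1 peak.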
